A study of Mus musculus with 16 samples.

Results

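The 8 genes described here encode the enzymes that modify collagen lysines before and during cross-linking: the lysyl oxidases *Lox*, *Loxl1*, *Loxl2*, *Loxl3* and *Loxl4*, and the collagen lysyl hydroxylases *Plod1*, *Plod2* and *Plod3*. They were taken by gene symbol from a table of 18990 genes, and all 8 were found and passed the filter for testing, which 14028 genes passed. The 16 bulk RNA sequencing libraries came from BL6 wild-type primary mouse embryonic fibroblasts (MEFs) carrying a doxycycline-inducible lentiviral cassette of Oct4, Sox2, Klf4 and c-Myc (OSKM) and the transactivator rtTA. Pooled siRNAs against *Wdr5* (siWdr5), *Brca1* (siBrca1) or *Bard1* (siBard1), or non-targeting siRNAs (nt control), were transfected before induction, and cells were collected on day 3 and day 6. Each group has 2 libraries, which came from separate experiments. The nt control cells carried the cassette too, and all groups received doxycycline, chiron, an Alk5 (TGFb receptor) inhibitor, ascorbic acid and LIF. The cultures were mixed populations, in which fewer fibroblasts and less RNA per fibroblast cannot be told apart, and siRNA knockdown is transient and partial. The comparisons ask how loss of each chromatin factor changed these transcripts early in reprogramming.

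Collagen and elastin gain their strength from covalent bonds between lysine residues of neighbouring chains. Inside the endoplasmic reticulum (ER), lysyl hydroxylases turn chosen lysines into hydroxylysine with iron, 2-oxoglutarate and ascorbate as cofactors. Outside the cell, the copper-dependent lysyl oxidases deaminate lysines and hydroxylysines to aldehydes, which then react into cross-links. Fibroblasts are a main source of these enzymes, and TGFb is a known inducer of several.

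The RefSeq promoter table for GRCm38.p6 matched *Loxl4*, *Plod1* and *Plod3*, 3 of the 8 genes. In the results below, *Plod3* was called in siWdr5 at both days, as was *Loxl4* with smaller differences. *Plod1* was called at day 3, with a change that differed between days in siBrca1. A link between sequence and level was not tested. Sequences are shown for these 3 genes because no other member was matched. Each runs 5′ to 3′ on the gene's strand over 300 bases, from 250 before to 50 after the annotated start. The windows are chr19:42612757-42613056 for *Loxl4*, chr4:147936727-147937026 for *Plod1* and chr5:136986769-136987068 for *Plod3*.
Loxl4: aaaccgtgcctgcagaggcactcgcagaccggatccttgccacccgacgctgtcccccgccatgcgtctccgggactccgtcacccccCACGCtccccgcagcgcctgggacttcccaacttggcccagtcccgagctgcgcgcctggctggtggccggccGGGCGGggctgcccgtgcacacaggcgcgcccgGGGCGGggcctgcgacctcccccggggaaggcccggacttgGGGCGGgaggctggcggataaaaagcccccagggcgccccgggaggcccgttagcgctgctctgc
Plod1: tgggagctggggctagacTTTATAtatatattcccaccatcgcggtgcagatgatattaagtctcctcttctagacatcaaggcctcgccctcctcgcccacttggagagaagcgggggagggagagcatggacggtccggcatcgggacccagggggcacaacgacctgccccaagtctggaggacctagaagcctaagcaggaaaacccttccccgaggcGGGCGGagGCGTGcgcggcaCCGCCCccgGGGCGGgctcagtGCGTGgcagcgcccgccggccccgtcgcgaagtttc
Plod3: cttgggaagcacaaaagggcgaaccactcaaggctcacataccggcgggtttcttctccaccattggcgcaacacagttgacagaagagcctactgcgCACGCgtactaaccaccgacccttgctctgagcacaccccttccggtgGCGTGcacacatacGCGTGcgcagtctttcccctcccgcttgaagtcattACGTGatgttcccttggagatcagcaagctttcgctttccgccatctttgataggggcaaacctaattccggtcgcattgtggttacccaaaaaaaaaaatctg
Capitals mark matches on either strand to ACGTG and GCGTG (the core letters of hypoxia response elements, which share their last 4 letters), GGGCGG (the GC box), TGANTCA (the AP-1 site) and TATAAA (the TATA box). *Plod3* held 1 ACGTG and 3 GCGTG and no GC box. *Plod1* held 2 GCGTG, 3 GGGCGG and 1 TATAAA, and *Loxl4* held 1 GCGTG and 3 GGGCGG, with a GC content of 75%. The TATAAA match of *Plod1* reads TTTATA, so it is on the other strand, near the 5′ end of the window and far from the annotated start. None of the 3 windows held TGANTCA. Over 32851 mouse promoters of the same length, 19.6% held ACGTG, 32.4% GCGTG, 35.7% GGGCGG, 7.81% TGANTCA and 13.6% TATAAA.

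GENCODE vM21 on GRCm38 (mm10) places the lysyl oxidases on 5 chromosomes: *Lox* at chr18:52516067-52529867 (minus strand), *Loxl1* at chr9:58287738-58313186 (minus), *Loxl2* at chr14:69609068-69695834 (plus), *Loxl3* at chr6:83034173-83052562 (plus) and *Loxl4* at chr19:42593982-42612813 (minus). *Plod1* lies at chr4:147909753-147936767 (minus), *Plod2* at chr9:92542223-92608428 (plus) and *Plod3* at chr5:136987019-136996648 (plus). Exons of a gene on the other strand overlap 535 bases of the *Loxl3* exons (*Htra2*), 529 of *Plod3* (*Znhit1*), 346 of *Plod2* (*Gm38391*), 301 of *Loxl2* (*Gm27177*) and 30 of *Lox* (*AC161119.1*). On the same strand, the microRNA genes *Mir6950* and *Mir702* overlap 7 bases of *Loxl2* and 9 of *Plod3*. Whether the authors' counting used strand is not given in the sources used here, so reads of these stretches could belong to either gene.

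Libraries held 11169738 to 26832534 reads, and each of the 8 genes had 394 to 6233 reads in every library, far above the floor of 3 reads (0.115 to 0.260 CPM, the read count scaled to a common library size). Each siRNA lowered its own transcript at day 3, by 1.31, 1.57 and 0.62 on the log2 scale for *Wdr5*, *Brca1* and *Bard1* (limma adjusted p = 3.02e-06, 7.90e-05 and 0.0422). Mean levels of the other targets were lower too at day 3. *Wdr5* stood at 131 CPM in the nt control, 71.6 in siBrca1 and 94.3 in siBard1. *Brca1* stood at 80.2 CPM in the nt control, 44.5 in siWdr5 and 61.9 in siBard1. In siBrca1 it stood at 37.5 CPM in replicate 1 and 19.4 CPM in replicate 2, so replicate 1 had the weaker knockdown. *Bard1* stood at 29.8 CPM in the nt control, 19.4 in siBard1, 14.6 in siWdr5 and 11.8 in siBrca1. No knockdown group thus had a lower level of its own target alone. At day 6 the same differences were -0.27, 0.01 and 0.11 (adjusted p = 0.189, 0.988 and 0.853), so the day 6 comparisons concern cells in which the targeted transcript no longer differed detectably from the nt control. All 10 fibroblast markers were in the table. Their summed level at day 3 was 2767 to 2850 CPM in nt control libraries, 3627 to 3885 in siWdr5, 4205 to 4545 in siBrca1 and 3255 to 3683 in siBard1. By limma (adjusted p under 0.05), 7 of the 10 were higher in siWdr5, 7 higher and 1 lower in siBrca1, and 3 higher in siBard1. Of all genes 18.3%, 25.4% and 8.67% were higher, and 21.8% lower in siBrca1. Day 6 sums were 2243 to 2556, 3257 to 3814, 2926 to 3110 and 3340 to 3484 CPM in the nt control, siWdr5, siBrca1 and siBard1. By limma, 5 of the 10 were higher in siWdr5 at day 6, against 16.1% of all genes. Limma called 0 of the 10 in siBrca1 and 0 in siBard1, where 4 and 6 had an unadjusted p under 0.05. Of all genes, 0% and 0.0784% were called higher there. Markers of other lineages were low: 5 of 7 macrophage markers were in the table and summed to 7.28 to 15.5 CPM over all libraries, with *Adgre1* and *Tyrobp* at or under 3 reads in several groups. Of 6 endothelial markers 5 were in the table and summed to 16.8 to 60.2 CPM over all libraries, highest in siWdr5 at day 3 (53.5 to 60.2 CPM). *Pecam1* was at or under 3 reads in the nt control and siBard1 at day 3. *Cdh5* was so in the 3 knockdowns at day 3 and the nt control at day 6. No other endothelial marker was that low in both libraries of a group.

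At day 3, 7 of the 8 genes rose in siWdr5 and 7 in siBrca1, *Plod2* being the exception in both, and *Lox* and *Loxl2* rose in siBard1. Called means an adjusted p under 0.05 in limma, with Benjamini-Hochberg adjustment over all 14028 genes, and all 3 knockdowns were compared with the same 2 nt control libraries. Over all genes, 18.3% were called higher in siWdr5, 25.4% in siBrca1 and 8.67% in siBard1, and 16.8%, 21.8% and 5.87% lower. With a log2-fold change above 1 as a further condition, 2, 2 and 1 of the 8 genes were called, against 4.10%, 7.12% and 1.58% of all genes. The median log2-fold change of the 8 genes was 0.66, 0.79 and 0.35 in siWdr5, siBrca1 and siBard1, against -0.04, 0.00 and -0.02 over all genes tested. Both knockdown libraries lay above both nt control libraries for 7 of the 8 genes in each knockdown, against 34.9%, 38.8% and 30.2% of all genes tested.

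*Lox*, the founding member of the family and an oxidase of fibrillar collagen and elastin, showed the largest day 3 difference in siWdr5 among the 8 genes. At day 3 it stood at 104 and 120.3 CPM in the nt control, 293 and 315 CPM in siWdr5, 284 and 321 CPM in siBrca1, and 206 and 244 CPM in siBard1. The lowest knockdown library thus lay well above the highest control library. Group means were 112 ± 11.7 CPM (mean ± SD, n = 2), 304 ± 16.1, 303 ± 26.3 and 225 ± 26.8 CPM in the same order. Against the nt control *Lox* rose on the log2 scale by 1.44 (95% interval 1.19 to 1.70) in siWdr5, by 1.44 (1.18 to 1.69) in siBrca1 and by 1.00 (0.75 to 1.26) in siBard1, with limma adjusted p of 3.78e-06, 2.44e-06 and 0.000251. The calls for *Lox* held under all 16 alternatives run for each knockdown, leaving out any single library included.

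*Loxl2*, an oxidase with scavenger receptor domains that acts on collagen IV of basement membranes among other substrates, stood at 75.3 and 84.3 CPM in the nt control at day 3. It reached 169 and 194 CPM in siWdr5, 211 and 261 CPM in siBrca1, and 142 and 147 CPM in siBard1, again with no overlap between knockdown and control. Its log2-fold changes were 1.19 (SE 0.12), 1.56 and 0.86, with limma adjusted p of 1.44e-05, 1.36e-06 and 0.000701. *Loxl2* was called in each knockdown without any single library, and its lowest log2-fold change in siBard1 was 0.78.

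*Loxl1*, which is tied to elastic fibre formation, was the most abundant of the 8 genes per length. Its day 3 levels were 162 and 175 CPM in the nt control, 274 and 276 CPM in siWdr5, 291 and 304 CPM in siBrca1, and 182 and 253 CPM in siBard1. The siBard1 libraries were far apart, and the lower one was close to the controls. The log2-fold changes were 0.71 in siWdr5 and 0.82 in siBrca1 (limma adjusted p = 0.00131 and 0.000238) and 0.35 in siBard1 (adjusted p = 0.0917). The siBard1 value of *Loxl1* was 0.59 without siBard1 replicate 2, which passed the test (adjusted p = 0.0149), and 0.11 without replicate 1 (adjusted p = 0.541).

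*Loxl3* and *Loxl4*, the less studied oxidases, showed smaller differences. *Loxl3* went from 46.5 and 55.8 CPM in the nt control to 62.8 and 72.2 CPM in siWdr5 and 71.8 and 74.8 CPM in siBrca1, log2-fold changes of 0.40 and 0.52 (limma adjusted p = 0.0241 and 0.00384). *Loxl4* went from 42.5 and 50.3 CPM to 58.4 and 59.3 CPM in siWdr5 and 64.4 and 66.9 CPM in siBrca1, changes of 0.35 and 0.50 (adjusted p = 0.0288 and 0.00242). In siBard1 the log2 differences were 0.37 for *Loxl3* and 0.35 for *Loxl4*, and neither passed the test (adjusted p = 0.0619 and 0.0554). Without nt control replicate 1 of day 3, neither *Loxl3* nor *Loxl4* was called in any knockdown, and 5 of the 8 genes remained called in siWdr5 and 5 in siBrca1. The count in siWdr5 was also 5 without either of its own libraries.

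Of the lysyl hydroxylases, *Plod3* and *Plod1* rose in siWdr5 and siBrca1 at day 3. *Plod3*, whose product also adds sugars to hydroxylysine, stood at 126 and 129 CPM in the nt control, 222 and 230.3 CPM in siWdr5, 205 and 224 CPM in siBrca1, and 138 and 166 CPM in siBard1. All knockdown libraries lay above both controls, with the siBard1 libraries nearest to them. Its log2-fold changes were 0.83, 0.75 and 0.25 (limma adjusted p = 0.000107, 0.000120 and 0.133). *Plod1*, which hydroxylates lysines of the collagen triple helix, stood at 31.1 and 34.6 CPM in the nt control, 49.8 and 50.6 CPM in siWdr5, 56.9 and 68.6 CPM in siBrca1, and 37.7 and 45.6 CPM in siBard1. Its log2-fold changes were 0.62, 0.93 and 0.34 (adjusted p = 0.00284, 9.04e-05 and 0.0961). *Plod2*, which hydroxylates the lysines of collagen telopeptides, stayed within 45.6 to 62.7 CPM over all 16 libraries. Its day 3 log2 differences were -0.08 (95% interval -0.35 to 0.19), -0.17 (-0.44 to 0.10) and 0.13 (-0.14 to 0.40) in siWdr5, siBrca1 and siBard1, none past the test.

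**Figure D1:**
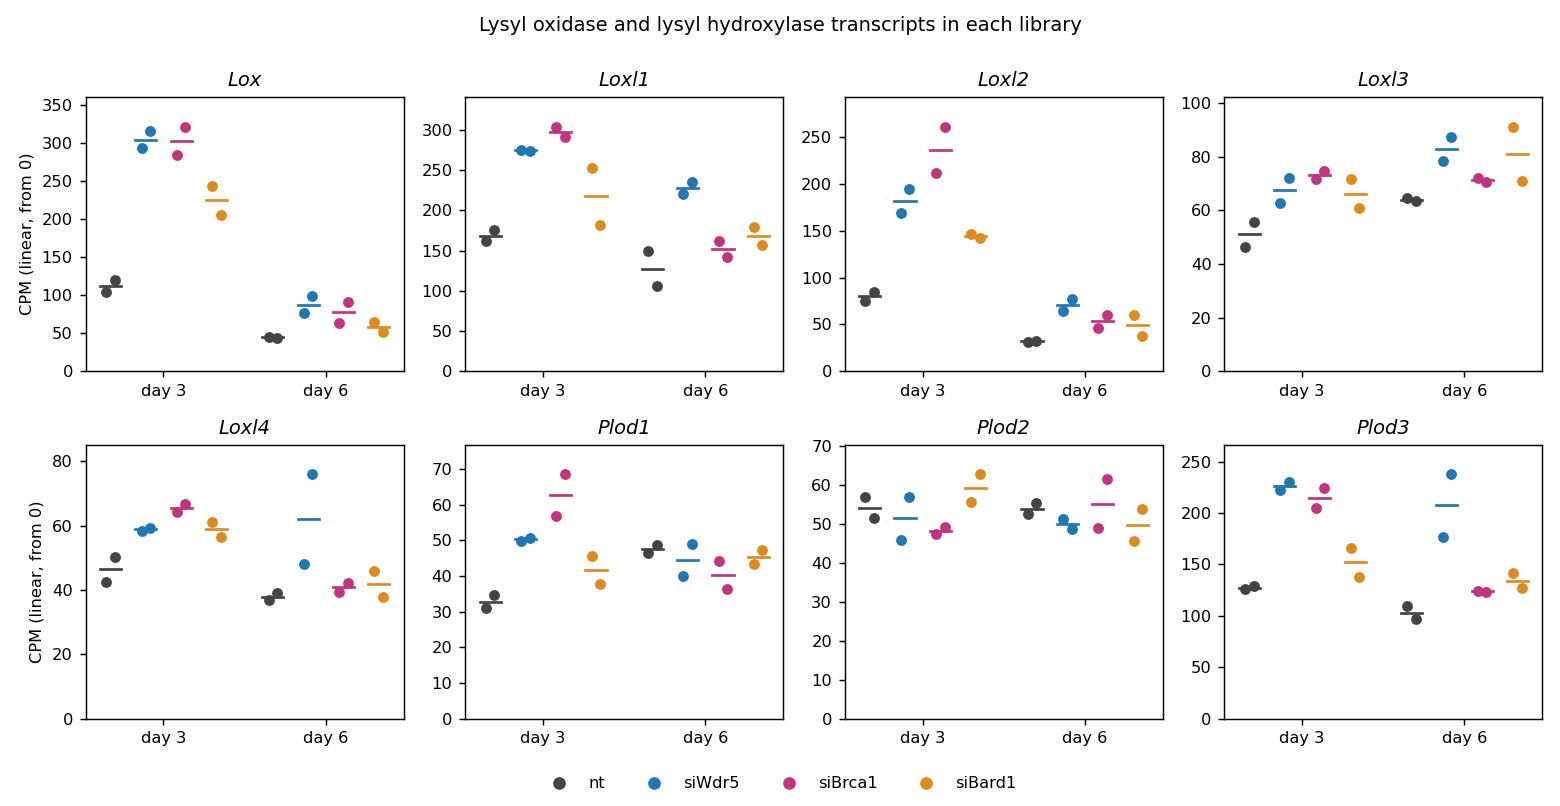
Level in CPM (linear axis from 0) of each of the 8 genes in the nt control, siWdr5, siBrca1 and siBard1 at day 3 and day 6, with 1 point per library and a line for the group mean. The points of *Lox* and *Loxl2* in all knockdowns at day 3 lie clear of the nt control, while those of *Plod2* lie between 45.6 and 62.7 CPM throughout.

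At day 6, 5 of the 8 genes rose in siWdr5, against 16.1% of all genes called higher, and limma called none of the 8 in siBrca1 or siBard1. In siBrca1 no gene of the 14028 was called in limma (0%), while 1123 genes had an unadjusted p under 0.05, and limma-voom on the recovered reads also called 0, with 1042 at that level. In siBard1 limma called 11 genes, all higher (0.0784%), and 1908 genes had an unadjusted p under 0.05, with 7 genes called by limma-voom. Of the 8 genes, 2 in siBrca1 and 4 in siBard1 had an unadjusted p under 0.05. Both knockdown libraries lay above both controls for 6 of the 8 genes in siWdr5, 5 in siBrca1 and 5 in siBard1, against 41.3%, 21.9% and 34.2% of all genes tested. The difference between days was tested separately and is given further on.

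*Lox* stood at 43.2 and 45.2 CPM in the nt control at day 6, 76.0 and 98.9 CPM in siWdr5, 63.5 and 91.2 CPM in siBrca1, and 51.9 and 64.6 CPM in siBard1. Every knockdown library was above both controls. The log2 differences were 0.97 (limma adjusted p = 0.00876), 0.79 (0.355) and 0.39 (0.395). *Loxl2* stood at 31.6 and 31.7 CPM in the nt control, 64.7 and 77.6 CPM in siWdr5, 46.4 and 60.1 CPM in siBrca1, and 37.7 and 60.1 CPM in siBard1. Its differences were 1.16 (adjusted p = 0.00684), 0.74 (0.469) and 0.59 (0.277).

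In siWdr5 at day 6, *Plod3* rose from 96.5 and 109 CPM to 177 and 238 CPM, a log2-fold change of 1.00 (SE 0.15, limma adjusted p = 0.00362). *Loxl1* rose from 106 and 149 CPM to 221 and 236 CPM (0.86, adjusted p = 0.00815), and *Loxl4* from 36.8 and 39.1 CPM to 48.2 and 76.1 CPM (0.67, adjusted p = 0.0335). *Loxl3* stood at 63.5 and 64.6 CPM in the nt control and 78.5 and 87.5 CPM in siWdr5, and did not pass the test (0.37, adjusted p = 0.0731). *Plod1* and *Plod2* differed by -0.10 (95% interval -0.42 to 0.22) and -0.11 (-0.42 to 0.21). Without siWdr5 replicate 2 of day 6 none of the 5 was called (*Lox* adjusted p = 0.107, *Loxl1* 0.0901, *Loxl2* 0.0900, *Loxl4* 0.262 and *Plod3* 0.0619), although the log2 differences stayed at 0.34 or more, and without nt control replicate 2 of day 6 *Plod3* alone was called. Over the whole table, 3060 genes were called in siWdr5 with all libraries, 38 without the former library and 304 without the latter. With a log2-fold change above 1 as a further condition 1 of the 8 was called, *Loxl2*, against 3.33% of all genes.

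**Figure D2:**
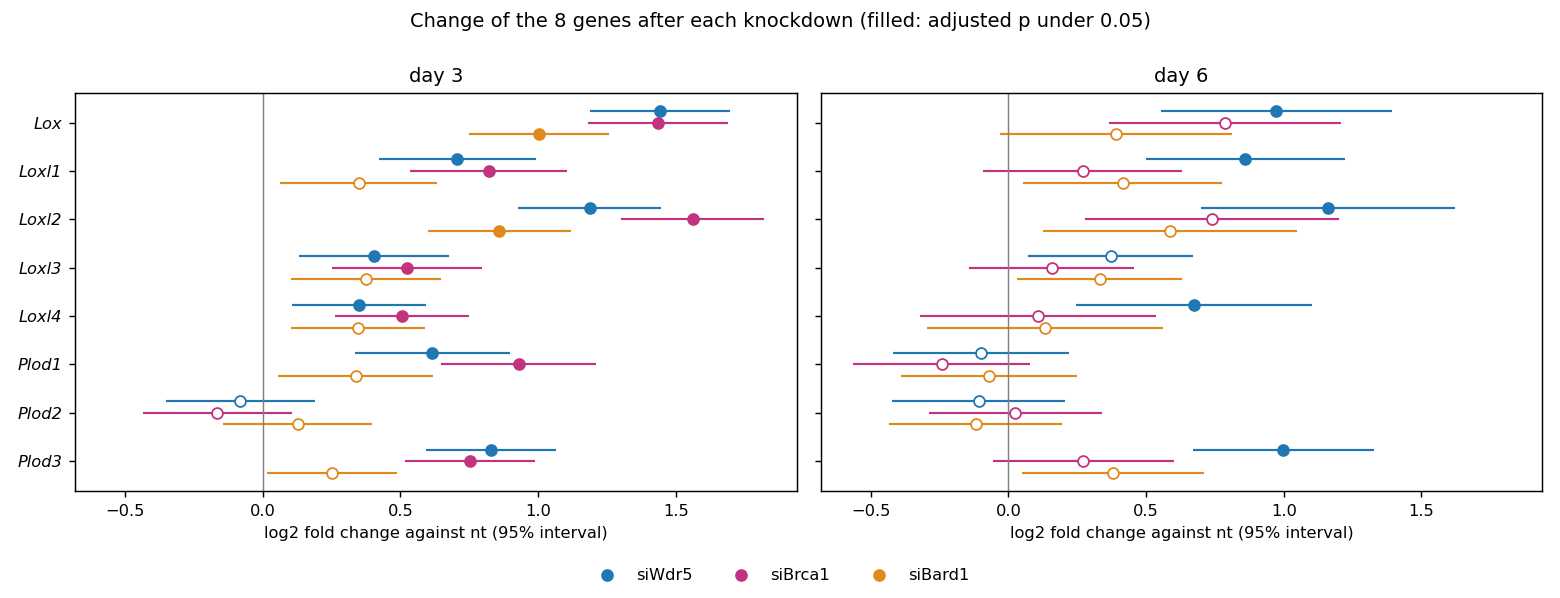
Log2-fold change against the nt control with its 95% interval for each of the 8 genes in siWdr5, siBrca1 and siBard1 at day 3 and day 6, with filled points for adjusted p under 0.05. At day 3 filled points stand for 7, 7 and 2 genes, and at day 6 for 5, 0 and 0.

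In the nt control itself, *Lox* and *Loxl2* fell between day 3 and day 6 and *Plod1* rose. The log2-fold change was -1.34 for *Lox* (SE 0.17, limma adjusted p = 2.08e-05), -1.33 for *Loxl2* (adjusted p = 4.05e-05), -0.42 for *Loxl1* (0.0405) and 0.53 for *Plod1* (0.00576). Thus 3 of the 8 genes were called lower, against 27.1% of all genes, and 1 called higher, against 19.0%. Of the falls, 2 passed a log2-fold change of 1 (*Lox* and *Loxl2*), against 4.03% of all genes. *Loxl3* (0.33, adjusted p = 0.0553), *Loxl4* (-0.28, 0.172), *Plod2* (-0.01, 0.975) and *Plod3* (-0.31, 0.0700) did not pass. The *Loxl3* difference depended on the processing: over 14 alternatives it ran from 0.20 to 0.54, with limma adjusted p as low as 0.00214. Without nt control replicate 1 of day 3 the calls of *Loxl1* and *Plod1* were lost and those of *Lox* and *Loxl2* held. The change of *Loxl1* was -0.17 (adjusted p = 0.450) without nt control replicate 2 of day 6 and -0.67 (0.00811) without replicate 1 of that day, and its call was also lost without nt control replicate 2 of day 3 (adjusted p = 0.186). Without that library *Loxl3* passed the test (0.46, adjusted p = 0.0424). In the knockdowns, where this course was not tested, the day 6 minus day 3 difference of *Lox* was -1.81, -1.99 and -1.95 and that of *Loxl2* -1.36, -2.15 and -1.60 in siWdr5, siBrca1 and siBard1. *Plod1*, higher at day 6 in the nt control, differed by -0.18, -0.64 and 0.13 in the same order.

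The change against the nt control was smaller at day 6 than at day 3 for *Plod1* and *Loxl2* in siBrca1. The interaction (day 6 change minus day 3 change) of *Plod1* was -1.17 (SE 0.20, 95% interval -1.60 to -0.75, limma adjusted p = 0.00289): its siBrca1 libraries stood at 36.3 and 44.3 CPM at day 6, under the nt control at 46.4 and 48.5 CPM, after having been above it at day 3. This call held in all 18 alternatives, with adjusted p from 0.000526 to 0.0199. The interaction of *Loxl2* was -0.82 (SE 0.26, -1.37 to -0.27, adjusted p = 0.0349), but its adjusted p ran from 0.0186 to 0.155 over the alternatives, and leaving out any of 6 libraries ended the call. In siBrca1 2 of the 8 genes were thus called lower, against 10.3% of all genes, and 1 (*Plod1*) passed a size of 1 on the log2 scale, against 4.64%. *Lox*, *Loxl1* and *Plod3* had interactions of -0.65, -0.55 and -0.48 in siBrca1 (adjusted p = 0.0641, 0.0935 and 0.0826). None of the 8 was called in siWdr5, where *Plod1* came nearest (-0.72, adjusted p = 0.0524) and 4.43% of all genes were called, with 1 of the 8 at an unadjusted p under 0.05 and 0 called by limma-voom. None was called in siBard1 either, where 0.0499% of all genes were called, with 1 of the 8 (*Lox*, -0.61, adjusted p = 0.177) at an unadjusted p under 0.05 and 0 called by limma-voom.

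At day 3 the knockdowns were also compared with each other. siBard1 was lower than siBrca1 for 5 of the 8 genes, against 13.1% of all genes: *Loxl2* (-0.70, limma adjusted p = 0.00429), *Plod1* (-0.59, 0.00862), *Plod3* (-0.50, 0.00855), *Loxl1* (-0.47, 0.0231) and *Lox* (-0.43, 0.0208). It was lower than siWdr5 for 2 genes, against 4.85% of all genes: *Plod3* (-0.58, adjusted p = 0.00652) and *Lox* (-0.44, 0.0353). None of these differences passed a size of 1 on the log2 scale, which 1.46% and 1.18% of all genes did. Without siBard1 replicate 2 of day 3, none of these differences passed the test, and those from siWdr5 were also lost without either siWdr5 library of day 3. Over the whole table, leaving out siBard1 replicate 2 lowered the genes called from 3008 to 0 against siBrca1, with 3323 at an unadjusted p under 0.05, and from 1210 to 264 against siWdr5. Between siBrca1 and siWdr5 limma called none of the 8, against 15.7% of all genes, with 2 at an unadjusted p under 0.05 and 1 called by limma-voom. *Loxl2* was 0.37 higher in siBrca1 (95% interval 0.11 to 0.63, adjusted p = 0.0511) and *Plod1* 0.31 higher (0.03 to 0.59, adjusted p = 0.119), and without siBrca1 replicate 1 of day 3 both were called (adjusted p = 0.00134 and 0.0124). The interval for *Lox* was -0.26 to 0.25.

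Dividing CPM by merged exon length puts the genes on a scale on which they can be ranked. In the nt control at day 3 the order was *Loxl1* (51.1 ± 2.85 CPM per kb, n = 2), *Plod3* (28.2 ± 0.500), *Lox* (23.4 ± 2.46), *Loxl2* (14.8 ± 1.18), *Loxl3* (11.1 ± 1.43), *Loxl4* (11.02 ± 1.30), *Plod2* (10.04 ± 0.699) and *Plod1* (4.85 ± 0.367). The neighbours *Loxl3*, *Loxl4* and *Plod2* overlapped and cannot be ordered. At day 3 *Lox* stood at 63.6, 63.4 and 47.0 CPM per kb in siWdr5, siBrca1 and siBard1, above *Plod3* at 50.1, 47.4 and 33.7 CPM per kb. That order depends on the length used: per kb of the longest transcript, *Lox* stood at 64.1, 63.9 and 47.4 and *Plod3* at 69.0, 65.4 and 46.4 in the same order. On that scale the libraries of these genes overlapped in siBrca1 and siBard1, where they cannot be ordered. By day 6 in the nt control *Lox* was at 9.25 and *Loxl2* at 5.86 CPM per kb, the lowest of the 8 genes, while *Loxl1* at 38.7 and *Plod3* at 22.8 CPM per kb still led.

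The summed lysyl oxidase level at day 3 was 111 ± 9.21 CPM per kb in the nt control, 209 ± 7.75 in siWdr5, 229 ± 10.1 in siBrca1 and 168 ± 24.0 in siBard1. *Lox* made up 21.0% of that sum in the nt control and 30.4%, 27.7% and 28.0% in the knockdowns, while the share of *Loxl1* was 45.9% against 39.8%, 39.5% and 39.0%. At day 6 the sums were 76.7 ± 9.41, 134 ± 14.3, 97.3 ± 1.92 and 99.8 ± 14.1 CPM per kb, with *Lox* at 12.1%, 13.7%, 16.6% and 12.2%. Among the lysyl hydroxylases *Plod3* supplied 65.4% of the summed level in the nt control at day 3 and 74.7% in siWdr5, and 57.2% and 74.1% at day 6. *Plod1* went from 11.3% to 17.7% of that sum in the nt control between the days.

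**Figure D3:**
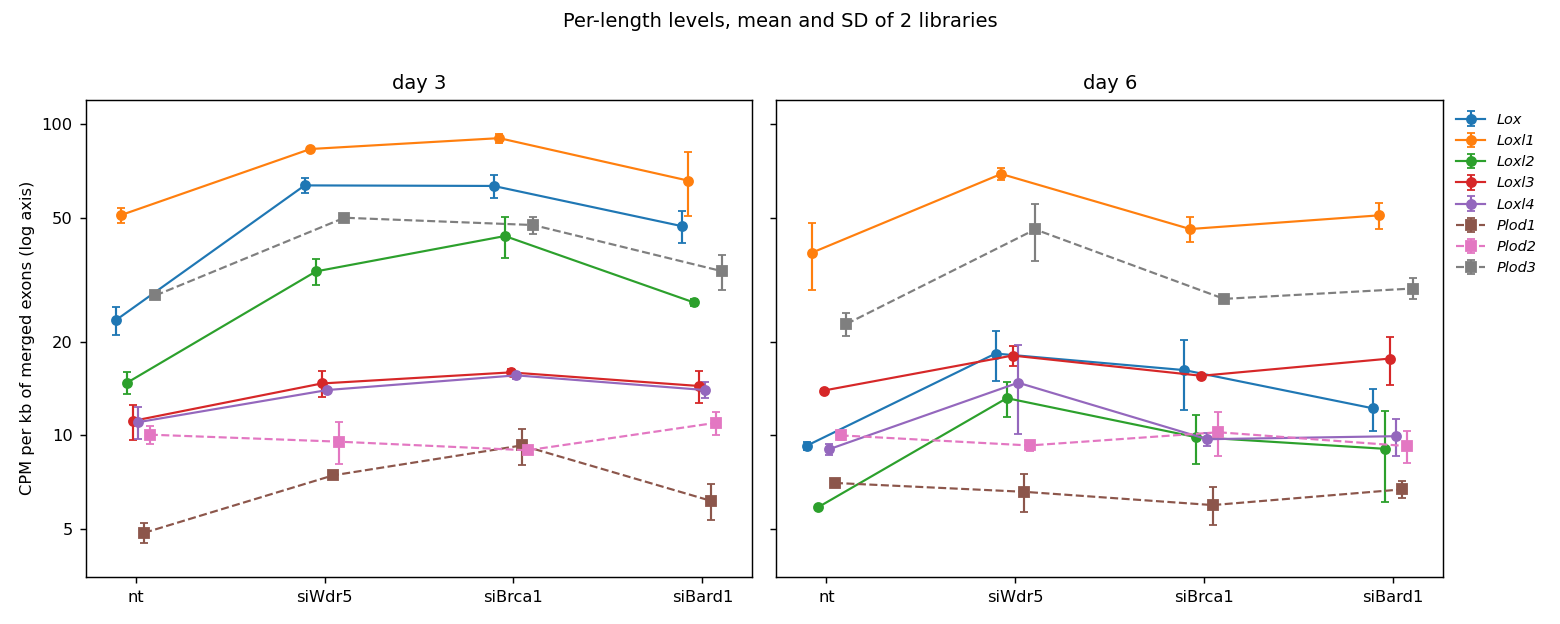
Mean level in CPM per kb of exon (log axis) of the 8 genes in each condition at day 3 and day 6, with 1 line per gene and bars of 1 SD (n = 2). *Loxl1* lies highest throughout, and by merged exon length *Lox* lies above *Plod3* at day 3 in the knockdowns and below it in the nt control. By longest transcript *Plod3* lies above *Lox* in siWdr5 too, and the libraries of these genes overlap in siBrca1 and siBard1.

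Over the 8 group means the members differed in how far they moved. *Loxl2* spanned 2.89 and *Lox* 2.78 on the log2 scale, a 7.42-fold and 6.88-fold range in CPM. *Loxl1* spanned 1.24, *Plod3* 1.14, *Plod1* 0.93, *Loxl4* 0.79, *Loxl3* 0.70 and *Plod2* 0.29. For the 4 genes spanning at least 1, the genes with the most similar profile were sought by the root mean square (RMS) difference of centred group means over the 8 groups among all genes tested. For *Lox* the nearest was *Loxl2* itself (0.151), followed by *Flt1* (0.189) and *Cdc42ep3* (0.208). Those nearest to *Loxl2* were *Vcl* (0.0920), *Pdlim5* (0.102) and *Csrp1* (0.114). *Loxl1* was nearest to *Kif1c* (0.0553), *Ripor1* (0.0641) and *Ece1* (0.0652), and *Plod3* to *Bcl9l* (0.0630), *Prickle1* (0.0704) and *Stat3* (0.0716).

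The substrates of these enzymes moved as well. For this and the following lists, 18.3%, 25.4% and 8.67% of all genes were called higher at day 3 in siWdr5, siBrca1 and siBard1. The shares called lower were 16.8%, 21.8% and 5.87%. At day 6 in siWdr5 16.1% were called higher and 5.70% lower, and in the nt course 19.0% and 27.1%. For the siBrca1 interaction 10.3% were called lower. Of 11 fibrillar collagen genes tested, 9 rose in siWdr5, 7 rose and 1 fell in siBrca1, and 3 rose in siBard1 at day 3, with median log2-fold changes of 0.81, 0.72 and 0.40. *Col1a1*, the main chain of collagen I, went from a mean of 3677 CPM in the nt control to 7235 CPM in siWdr5 and 6049 CPM in siBrca1 (log2-fold changes 0.98 and 0.72), and *Col1a2* rose by 0.68 and 0.50. *Col5a1*, a chain of the collagen that starts fibrils, rose by 1.01, 0.85 and 0.52 in siWdr5, siBrca1 and siBard1. *Col3a1* rose by 0.81 in siWdr5, and its differences in the others were -0.39 and -0.10. At day 6 in siWdr5, 7 of the 11 rose, *Col1a1* by 2.05, *Col5a1* by 1.34 and *Col1a2* by 1.27. In the nt control 6 of the 11 fell and 2 rose between the days, with *Col1a1* at -1.83.

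Of 17 genes for folding and modification of collagen in the ER, 13 rose and 1 fell in siWdr5, 11 rose in siBrca1 and 6 rose in siBard1 at day 3 (medians 0.55, 0.41 and 0.35), and *Colgalt2* was too low to test. *P4ha2* and *P4ha1*, catalytic subunits of the prolyl hydroxylase that stabilizes the triple helix, rose in all 3 knockdowns, by 1.04, 1.28 and 0.57 and by 0.75, 0.61 and 0.42. *Fkbp10*, a chaperone needed for telopeptide lysyl hydroxylation, rose by 0.91, 0.93 and 0.55, beside the *Plod2* differences of -0.08, -0.17 and 0.13. *Serpinh1*, the collagen chaperone HSP47, rose by 0.45 in siWdr5 and 0.61 in siBrca1. *P3h1* rose by 0.66 and 0.34 in siWdr5 and siBrca1, and *Crtap*, its partner in prolyl 3-hydroxylation, rose by 0.39 in siWdr5. *P4hb* and *Colgalt1* rose by 0.55 and 0.40 in siWdr5. *Ppib*, a prolyl isomerase that works beside them, differed by -0.05, -0.04 and 0.02, none past the test. At day 6, 9 of the 17 rose in siWdr5, and 6 had a siBrca1 interaction below 0 that passed the test.

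The procollagen processing genes include *Bmp1*, which also cleaves the lysyl oxidase proenzyme to its active form. It rose in all 3 knockdowns at day 3, by 1.04, 0.70 and 0.49, and by 0.93 in siWdr5 at day 6. *Pcolce*, the enhancer of that protease, rose by 0.77 in siWdr5 and 0.47 in siBrca1, and by 1.25 in siWdr5 at day 6. Of 7 genes of this list 4 rose in siWdr5, 3 rose and 1 fell in siBrca1, and 2 rose in siBard1 at day 3. *Tll2* was not among the rows of the table.

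Of 11 elastic fibre genes 8 rose in siWdr5, 6 rose and 1 fell in siBrca1, and 5 rose in siBard1 at day 3, with *Mfap4* too low to test. *Eln*, the elastin substrate itself, lay between 0.43 and 6.47 CPM over the libraries and fell by 1.72 in siBrca1. *Efemp2*, which brings lysyl oxidase to elastin, rose by 1.09, 0.87 and 0.45, and *Fbln5*, another fibulin of elastic fibres, rose by 0.58, 1.08 and 0.80. *Fbn1*, the main microfibril protein, rose by 0.90 in siWdr5 and differed by 0.08 and 0.18 in siBrca1 and siBard1, neither past the test. At day 6, 7 of the 11 rose in siWdr5 and 1 in siBard1 (*Fbn2*, by 1.38, named after its value was seen).

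Of 12 genes whose products bind fibrils or link them to cells, 11 rose in siWdr5, 7 rose and 1 fell in siBrca1, and 7 rose and 1 fell in siBard1 at day 3. *Fmod*, fibromodulin, a proteoglycan known to bind lysyl oxidase and collagen, rose by 1.65, 1.35 and 0.73, and by 2.36 in siWdr5 at day 6. *Fn1*, fibronectin, rose by 1.13, 1.30 and 0.55. *Postn*, periostin, which brings *Bmp1* protein to lysyl oxidase, rose by 1.04, 0.88 and 0.81 at day 3 but fell by 1.11 in siWdr5 at day 6, where 5.70% of all genes were called lower. It rose by 1.62 in the nt control between the days.

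Of 6 copper delivery genes tested at day 3, 2 rose in siBrca1, where 25.4% of all genes were called higher, and limma called 0 in siWdr5, where 2 had an unadjusted p under 0.05, and 0 in siBard1, where 0 did, with *Atp7b* too low to test. *Atp7a*, the pump that loads lysyl oxidases with copper, differed by 0.27, 0.20 and 0.14, and the importer *Slc31a1* by 0.05, 0.05 and 0.07, none past the test. Of 14 targets of hypoxia-inducible factor, a known inducer of *Lox*, *Loxl2*, *Plod1* and *Plod2*, 5 rose and 2 fell in siWdr5, 5 rose and 3 fell in siBrca1, and 1 rose and 2 fell in siBard1. The shares of all genes were 18.3%, 25.4% and 8.67% higher and 16.8%, 21.8% and 5.87% lower. *Vegfa* rose by 1.04 in siBrca1 and differed by 0.44 and -0.06 in siWdr5 and siBard1, and *Slc2a1* differed by 0.04, 0.32 and -0.24, not past the test. Between the days of the nt control 7 of the 14 rose and 1 fell, with *Slc2a1* rising by 1.67 and *Vegfa* by 1.00. Beside them stand the course values of *Lox* (-1.34), *Loxl2* (-1.33), *Plod1* (0.53) and *Plod2* (-0.01).

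**Figure D4:**
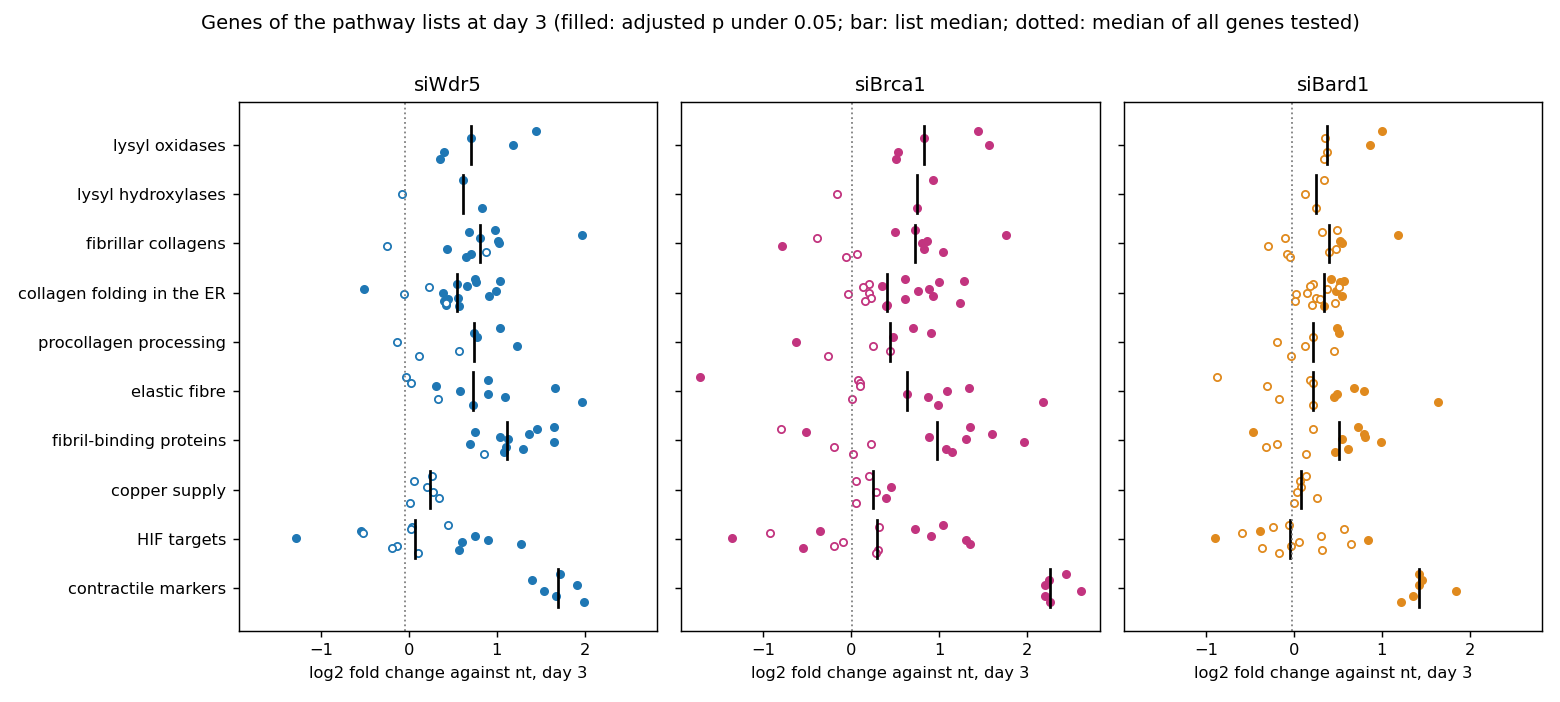
Log2-fold change at day 3 of each tested gene of the 8 members, 7 related gene lists and the contractile markers in siWdr5, siBrca1 and siBard1, with filled points for adjusted p under 0.05, a bar for the median of each list and a dotted line for the median of all genes tested. The fibril-binding list has medians of 1.11, 0.98 and 0.51, and the hypoxia list 0.07, 0.29 and -0.04.

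Contractile smooth muscle and myofibroblast markers rose beside the members. At day 3 all 6 were called higher in each knockdown, with medians of 1.69, 2.25 and 1.42, and their summed level was 975 to 1217 CPM in the nt control, 3514 to 3659 CPM in siWdr5, 5057 to 6623 CPM in siBrca1 and 2652 to 3364 CPM in siBard1. At day 6 all 6 were higher in siWdr5, at 767 to 957 CPM against 174 to 216 CPM in the nt control, with siBrca1 at 527 to 583 CPM and siBard1 at 317 to 759 CPM. All 6 fell in the nt control between the days (median -2.15). Epithelial markers summed to 78.6 to 101 CPM in the nt control at day 3 and 618 to 826 CPM at day 6, and 9 of 10 rose in that course. At day 3, 4 of the 10 epithelial markers fell and 1 rose in siWdr5, 2 fell and 2 rose in siBrca1, and 1 rose in siBard1. Of all genes, 16.8%, 21.8% and 5.87% were called lower and 18.3%, 25.4% and 8.67% higher in the same order. The siBrca1 and siBard1 counts lie near these shares and so say little about epithelial genes. At day 6, 6 fell in siWdr5, against 5.70% of all genes. Limma called 0 in siBrca1 and 0 in siBard1 at day 6, where 1 and 6 had an unadjusted p under 0.05. Pluripotency markers summed to 8.70 to 11.2 CPM in the nt control at day 3 and 160 to 177 CPM at day 6. The part of these cell markers in the differences of the lysyl oxidases and hydroxylases was not tested.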

How the data were processed

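RNA of 16 MEF cultures was ribosomal RNA-depleted and sequenced paired-end, aligned by the authors to mm10 with STAR 2.5.2b and deposited as log2 CPM computed with edgeR 3.20.9, with a prior (1.57 to 3.57 reads here) and a scaling factor per library (0.925 to 1.12). The counter, its annotation and strand setting are not given in the sources used here. The deposited log2 values gave whole reads in 100% of cases (tolerance 0.01 reads), with libraries of 11169738 to 26832534 reads (median 14618683.5). In all 7 symbols stand for 2 rows each.

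CPM is 2 to the power of the deposited value, and includes the prior. The 14028 genes whose log2 CPM averaged 0 or more were fitted with limma 3.58.1 in R 4.3.3, with 1 mean per group and a trend, over the 8 libraries of a day, or over all 16 for the course of the nt control and the interactions. P-values are two-sided, adjusted by Benjamini-Hochberg over all genes tested, and called under 0.05. With 2 libraries a group, intervals and SDs are coarse. Data for siWdr5 against nt control at day 3 were simulated for 14028 genes, with the same assumed spread for every gene. Of these, 67, 67 and 66 were changed 1.5-fold, 2-fold and 4-fold, and 11.94%, 55.22% and 98.48% of them were called. False calls made up 4.348% of all calls. The real comparison called 4913 genes, which loosens the adjusted cut, so the simulated shares need not hold there. CPM per kb uses the merged exons of GENCODE vM21, which need not be the annotation of the authors.

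The replicates came from independent experiments. Replicate differences correlated between groups at -0.093 to 0.072 on day 3 and -0.07 to 0.26 on day 6, so equal replicate numbers were not taken as pairs. Such correlations cannot settle whether libraries of equal number shared an experiment. Genes named are the 8 members, 26 genes taken by function from 7 lists, the siRNA targets and, for members spanning at least 1 log2, the 3 nearest profiles. The members and lists were chosen with earlier results of these data known. Alternatives are listed with their effects in the closing section.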

Additional observations from a re-analysis of the deposited data

Results flagged for a closer look

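The siBrca1 change of 2 genes differed between the days by the interaction test. The interaction (day 6 change less that of day 3) of *Plod1* was -1.17 (limma adjusted p = 0.00289), with the change at 0.93 on day 3 and -0.24 on day 6. For *Loxl2* it was -0.82 (adjusted p = 0.0349), with changes of 1.56 and 0.74. *Brca1* itself was lowered at day 3 and not detectably at day 6, when its nt control mean was 37.9 CPM, against 80.2 CPM at day 3. The part of this in either difference was not tested. With 2 libraries a group, no test for a library far from the others could be made.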

How the results depend on the processing

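Counts below are of the 8 genes called. Adding a fold change threshold (absolute log2 above 1) lowered the counts from 7 to 2 in siWdr5, 7 to 2 in siBrca1 and 2 to 1 in siBard1 at day 3, from 5 to 1 in siWdr5 at day 6, from 2 to 0 and 5 to 0 for siBard1 against siWdr5 and siBrca1, from 4 to 2 in the nt course and from 2 to 1 for the siBrca1 interaction. The siBard1 count at day 3 was 4 with libraries centred on their median gene, with quantile normalization and with the 4 libraries of the compared groups. For siBard1 against siWdr5 (2) it was 1 with quantile normalization, no filter or all 16 libraries, 0 with no trend and 4 with the 4 libraries. For siBard1 against siBrca1 (5) it was 3, 3, 3, 0 and 2 in the same order. For siBrca1 against siWdr5 (0) it was 1 (*Loxl2*) with log2(CPM + 1), quantile normalization, limma-voom and the replicate block. The siWdr5 interaction count (0) was 1 (*Plod1*) with genes averaging 2 log2 CPM or more, centring, quantile normalization and the replicate block, and that of siBrca1 (2) was 4 with centring and 1 with no trend. Centring moved the median of all genes from 0.116 to -0.019 for the siWdr5 interaction. Whether equal replicate numbers pair the samples is not known. Elsewhere the replicate block moved the count from 2 to 3 in siBard1 at day 3 and from 2 to 3 for the siBrca1 interaction, and no other.

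Leaving out single libraries gave 0 to 5 in siWdr5 at day 6, 0 to 2 for siBrca1 against siWdr5, 0 to 3 for siBard1 against siWdr5, 0 to 5 for siBard1 against siBrca1, 2 to 4 in the nt course and 1 to 3 for the siBrca1 interaction. Per kb of the longest transcript, nt control levels at day 3 were 12.4 for *Loxl4*, 8.01 for *Plod1*, 14.8 for *Plod2* and 38.8 for *Plod3*.

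Signs turned only for differences that passed no test. *Plod2* in siBrca1 at day 6 was -0.0030 with centring and -0.039 with quantile normalization, and its nt course 0.042 and 0.19. With quantile normalization siBard1 against siWdr5 was 0.037 for *Loxl3* and 0.048 for *Loxl4*, and the siBard1 interaction -0.049 for *Loxl1* (-0.028 with centring) and -0.016 for *Plod3*. Leaving out single libraries, the differences from the nt control ran from -0.24 to 0.075 for *Plod2* in siWdr5 at day 3, -0.25 to 0.043 for *Plod1* in siWdr5 at day 6, -0.14 to 0.19 for *Plod2* in siBrca1, and -0.24 to 0.00037 for *Plod2* and -0.0040 to 0.27 for *Loxl4* in siBard1 at day 6. Those between knockdowns ran from -0.096 to 0.081 (*Lox*) and -0.24 to 0.072 (*Plod2*) for siBrca1 against siWdr5, and from -0.15 to 0.092 (*Loxl3*) and -0.060 to 0.057 (*Loxl4*) for siBard1 against siWdr5. The nt course of *Plod2* ran from -0.078 to 0.065. The siWdr5 interaction ran from -0.094 to 0.40 (*Loxl1*), -0.16 to 0.10 (*Loxl2*), -0.16 to 0.10 (*Loxl3*), -0.0046 to 0.65 (*Loxl4*), -0.18 to 0.13 (*Plod2*) and -0.046 to 0.38 (*Plod3*), and that of siBard1 from -0.18 to 0.32 (*Loxl1*), -0.61 to 0.063 (*Loxl2*), -0.22 to 0.14 (*Loxl3*) and -0.0063 to 0.26 (*Plod3*). The causes were not tested. Each of the 8 genes had 394 or more reads in every library.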
